A study of Homo sapiens with 96 samples.

Results

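The results below concern the way MAPK inhibition altered the response of A375 cells to cycloheximide while transcription was left running. The members were 24 of the 96 libraries of the series, taken by treatment and harvest time: 8 of its 32 groups, with 3 libraries in each. A375 is a human melanoma line driven by a mutant BRAF kinase. Cells of this single line were held for 18 h in DMSO, or in MAPKi (500 nM vemurafenib, a BRAF inhibitor, with 500 nM cobimetinib, a MEK inhibitor). They then received vehicle or 100 µg/ml cycloheximide, were given no triptolide, and were harvested at 3 h or 5 h. The 4 groups at each time were thus DMSO with vehicle, DMSO with cycloheximide, MAPKi with vehicle and MAPKi with cycloheximide. The response of a gene to cycloheximide is its log2 ratio of cycloheximide to vehicle within one pretreatment, and the interaction is that response in MAPKi-treated cells minus that in DMSO-treated cells. A negative interaction means a smaller rise, or a larger fall, after cycloheximide in MAPKi-treated cells.

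Cycloheximide stops the ribosome during elongation, and translation of an mRNA is coupled to its decay. Blocking protein synthesis also removes short-lived proteins that repress transcription, so that immediate-early genes, whose mRNAs are made in bursts after ERK signalling and destroyed within minutes, accumulate to high levels (superinduction). BRAF and MEK lie directly upstream of ERK, and mRNAs that carry premature stop codons, such as those of many snoRNA host genes, are degraded only while they are being translated.

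Levels are counts per 1000000 after trimmed-mean (TMM) scaling, written CPM, from 3′ end libraries of cytoplasmic RNA with 3719323 to 11571408 counts each (median 7450945). Gene positions are from RefSeq on GRCh38.p14. Errors of levels are SDs over 3 libraries, errors of log2 values are standard errors, and adjusted p-values are from edgeR's quasi-likelihood test with Benjamini-Hochberg adjustment over 14948 genes, with a gene called below 0.05. The labels do not say whether the libraries of a group came from separate cultures, so the tests measure the spread between these samples. Replicate libraries correlated at 0.965 to 0.984 (Pearson, log2 scale, across genes) and none were copies of each other. The lowest value came from the MAPKi vehicle group at 3 h, where replicate 2 was at 0.965 and 0.966 with the others and these were at 0.979 with each other. A fit without that library, added after the data were seen, called 1795 genes for the averaged interaction described below (854 higher and 941 lower), 1532 of them among the 1678 of the full fit. TMM factors were 1.14 to 1.21 in the MAPKi libraries with cycloheximide and 0.924 to 0.987 in those of DMSO-treated cells, and mitochondrial rRNA took 3.48% to 4.78% of counts on average in MAPKi groups and 2.04% to 2.97% in DMSO groups. Their part in the results was not tested. In bulk libraries, fewer cells of a kind and less RNA per cell cannot be told apart. DUSP6, an ERK-induced phosphatase and a readout of pathway activity, was at 414 ± 93.9 CPM at 3 h in vehicle after DMSO and at 1.48 ± 0.201 CPM after MAPKi. Of 8 melanoma markers, 6 exceeded 5 CPM on average, among them SOX10, MITF and S100B, while MLANA and TYR lay below 1 CPM. Summed leukocyte markers stayed at 0.222 to 2.28 CPM, with CD3E, CD3D, MS4A1 and NKG7 at 0. Summed fibroblast markers ran from 4.56 to 32.5 CPM, with FAP higher in MAPKi libraries and COL1A2, COL3A1 and DCN at 0. Summed epithelial markers lay at 257 to 358 CPM in DMSO libraries and at 130 to 181 CPM in MAPKi libraries, mostly from KRT10 and KRT18, with KRT5 and KRT1 at 0, and their part in the results was not tested.

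The cycloheximide response differed between the pretreatments for 1678 genes when 3 h and 5 h were averaged (11.2% of the genes tested), with 985 lower and 693 higher in MAPKi-treated cells. The interaction had the same sign at both times in 1665 of the 1678 genes and the same sign in 3 of 3 replicate numbers in 1657, which include every called gene given below with its levels. The replicate values join same-numbered libraries of the groups. The calls were made on these same libraries and times, so the selection favours such agreement and it is no separate support. It exceeded 2-fold in 206 of the lower and 178 of the higher genes. By their own tests, 170 genes were called at 3 h (57 higher and 113 lower, 1.14%) and 1389 at 5 h (586 higher and 803 lower, 9.29%), 148 of them at both times in the same direction. The division into lower and higher genes moved with the scaling, to 490 lower and 1558 higher with total counts and to 830 lower and 1072 higher when only the 24 libraries were fitted. With total counts it was 85 lower and 137 higher at 3 h and 401 lower and 1157 higher at 5 h. The median interaction of all genes was −0.04 under TMM and 0.10 with total counts, so list medians are read against the median of all genes. Counts of called list members are likewise read against the share over all genes, 4.64% higher and 6.59% lower. With total counts that background was 1558 higher and 490 lower of 14948 genes.

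**Figure D1:**
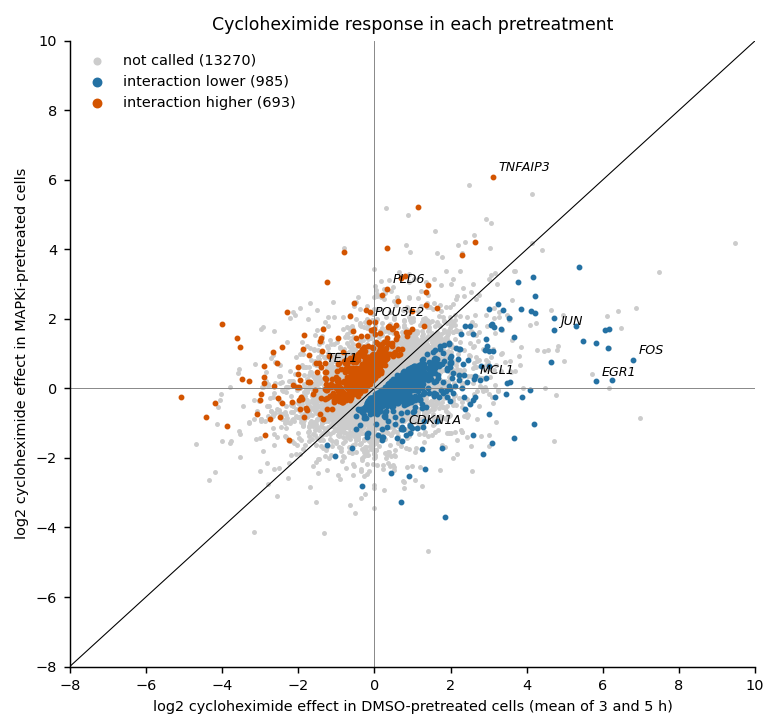
The log2 cycloheximide effect in DMSO-treated cells (x axis) against that in MAPKi-treated cells (y axis), each averaged over 3 h and 5 h, for 14948 genes. Both axes come from the fit that defines the interaction. Colours mark the 985 genes with a lower and the 693 with a higher interaction, and the diagonal marks equal effects: FOS, EGR1 and JUN lie far below it, TNFAIP3, PLD6 and POU3F2 above it.

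Cycloheximide alone raised 2733 genes and lowered 2011 in DMSO-treated cells (31.7% called, 18.3% up and 13.5% down) and raised 2383 and lowered 2082 in MAPKi-treated cells (29.9% called, 15.9% up and 13.9% down). With total counts the MAPKi figures were 3195 and 1256, and in a fit of the 24 libraries the DMSO figures were 2490 and 2763. Among the 985 lower genes, 400 rose in DMSO-treated cells and were not called in MAPKi-treated cells, 261 were called only as a fall in MAPKi-treated cells, 196 rose in both, 70 rose in DMSO-treated and fell in MAPKi-treated cells, and 41 fell in both. Among the 693 higher genes, 288 were called only as a rise in MAPKi-treated cells, 241 only as a fall in DMSO-treated cells, 71 fell in DMSO-treated and rose in MAPKi-treated cells, 41 rose in both and 33 fell in both. The remaining 17 lower and 19 higher genes were called in neither pretreatment alone. A rise called after DMSO alone was the most frequent form of a lower interaction, and a rise called after MAPKi alone the most frequent form of a higher one.

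Immediate-early genes were superinduced less after MAPKi. Of 38 tested members of a list of AP-1 and other immediate-early genes, 22 had a lower and 3 a higher interaction (over all genes tested, 6.59% were lower and 4.64% higher), with a median of −1.18 against −0.04 for all genes. With total counts 20 were lower and 4 higher. Cycloheximide raised 36 of the 38 in DMSO-treated cells and 32 in MAPKi-treated cells, so the rise was mostly smaller and seldom missing. The 22 lower members included both partners of the AP-1 dimer, growth factor-induced zinc finger and nuclear receptor factors, and MCL1.

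FOS (chromosome 14, 75278828 to 75282230), a subunit of AP-1, had the most negative interaction among genes with at least 10 counts per library in every group. At 5 h the DMSO-treated cells held 2.7, 4.64 and 3.49 CPM in vehicle and 637, 609 and 774 CPM in cycloheximide. The MAPKi-treated cells held 16.9, 19.8 and 19.4 CPM in vehicle and 19.3, 31.8 and 24.2 CPM in cycloheximide. The cycloheximide libraries of the 2 pretreatments lay far apart, and the vehicle libraries were higher after MAPKi. The response was 189-fold against 1.34-fold at 5 h and 66.0-fold against 2.32-fold at 3 h, and the interaction was −5.98 ± 0.26 on the log2 scale (adjusted p 1.98e-31, negative in 3 of 3 replicate numbers). It was also more negative at 5 h than at 3 h (difference −2.31, adjusted p 0.033). FOSB, a paralogue of FOS, went from 7.33 ± 1.80 to 770 ± 48 CPM at 5 h in DMSO-treated cells and from 2.73 ± 1.42 to 14 ± 2.81 CPM in MAPKi-treated cells (interaction −4.46 ± 0.34, adjusted p 5.99e-18).

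JUN (chromosome 1, 58780791 to 58784047), the usual partner of FOS in AP-1, kept part of its response. At 5 h its level was 53.8, 59.4 and 42.7 CPM in vehicle and 1780, 1679 and 1652 CPM in cycloheximide after DMSO. After MAPKi it was 206, 219 and 220 CPM in vehicle and 681, 789 and 743 CPM in cycloheximide. The 4 groups did not overlap, with MAPKi-treated cells above DMSO-treated cells in vehicle and below them in cycloheximide. The rise was 33.1-fold against 3.43-fold, and the interaction was −3.05 ± 0.14 (adjusted p 6.20e-31). ATF3, a stress-induced AP-1 family repressor, had the same order of groups, with an 89.6-fold rise at 5 h after DMSO and a 4.01-fold rise after MAPKi (interaction −3.50 ± 0.19, adjusted p 2.08e-25).

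EGR1 (chromosome 5, 138465479 to 138469303), a zinc finger factor induced by ERK through serum response factor, was near 1 CPM in vehicle under MAPKi, unlike FOS, JUN and ATF3, whose vehicle levels at 5 h were higher there than after DMSO. At 5 h it was at 69.4, 64.6 and 65.0 CPM in vehicle and at 5519, 5646 and 5421 CPM in cycloheximide after DMSO. After MAPKi it was at 1.00, 0.803 and 0.807 CPM in vehicle and at 1.18, 0.706 and 0.794 CPM in cycloheximide. The 2 MAPKi groups overlapped completely, and no rise was detectable at that depth. Its interaction was −5.62 ± 0.54 (adjusted p 3.40e-13). The 250 bases before its start are shown because serum response factor binds a CArG box. This window (chr5:138465229-138465478, plus strand, RefSeq, GRCh38.p14) holds 2 of them, marked by capitals and starting 105 and 83 bases before the start.
EGR1: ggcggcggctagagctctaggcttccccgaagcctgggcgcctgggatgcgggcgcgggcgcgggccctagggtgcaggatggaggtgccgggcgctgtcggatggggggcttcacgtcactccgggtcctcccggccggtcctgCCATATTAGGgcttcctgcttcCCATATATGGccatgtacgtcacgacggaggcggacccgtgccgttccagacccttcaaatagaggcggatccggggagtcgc
A CArG box on either strand lay in the 250 bases before the start of 0.952% of the 11024 tested genes with an entry. Among 17 immediate-early genes with a lower interaction and an entry, EGR1 was the only one to hold it. Only exact matches within these 250 bases were searched, so sites further upstream or with other letters would be missed in the other genes. A cyclic AMP response element (TGACGTCA, its own reverse complement) was held by 4 of these 17, by 5.28% of 795 lower genes and by 2.79% of the 11024. The motifs were chosen after the values were seen, and a match describes letters only.

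IER2, an immediate-early nuclear protein, rose from 121 ± 2.32 to 3168 ± 212 CPM at 5 h after DMSO and from 67.3 ± 10.2 to 390 ± 34.0 CPM after MAPKi (interaction −2.04 ± 0.14, adjusted p 1.19e-20). MCL1, a short-lived BCL2 family protein that protects cells from apoptosis, rose from 188 ± 27 to 1405 ± 108 CPM after DMSO. After MAPKi it stood at 84.5 ± 8.88 CPM in vehicle and 98.0 ± 10.5 CPM in cycloheximide, so the 7.46-fold rise became 1.16-fold (interaction −2.34 ± 0.18, adjusted p 3.66e-18). NR4A3, an orphan nuclear receptor, still rose 7.26-fold at 5 h after MAPKi against 27-fold after DMSO (interaction −2.70 ± 0.44, adjusted p 3.42e-06). Of the 3 list members with a higher interaction, TRIB1, a pseudokinase that promotes degradation of transcription factors, went from 43.9 ± 4.82 to 19.8 ± 3.02 CPM after DMSO and from 5.22 ± 0.693 to 9.93 ± 2.13 CPM after MAPKi (interaction 1.52 ± 0.22, adjusted p 1.65e-07). The others were CCN2 (0.89, not called without replicate 1) and GADD45A (0.66), and IER2, TRIB1 and GADD45A were named after their values were seen.

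**Figure D2:**
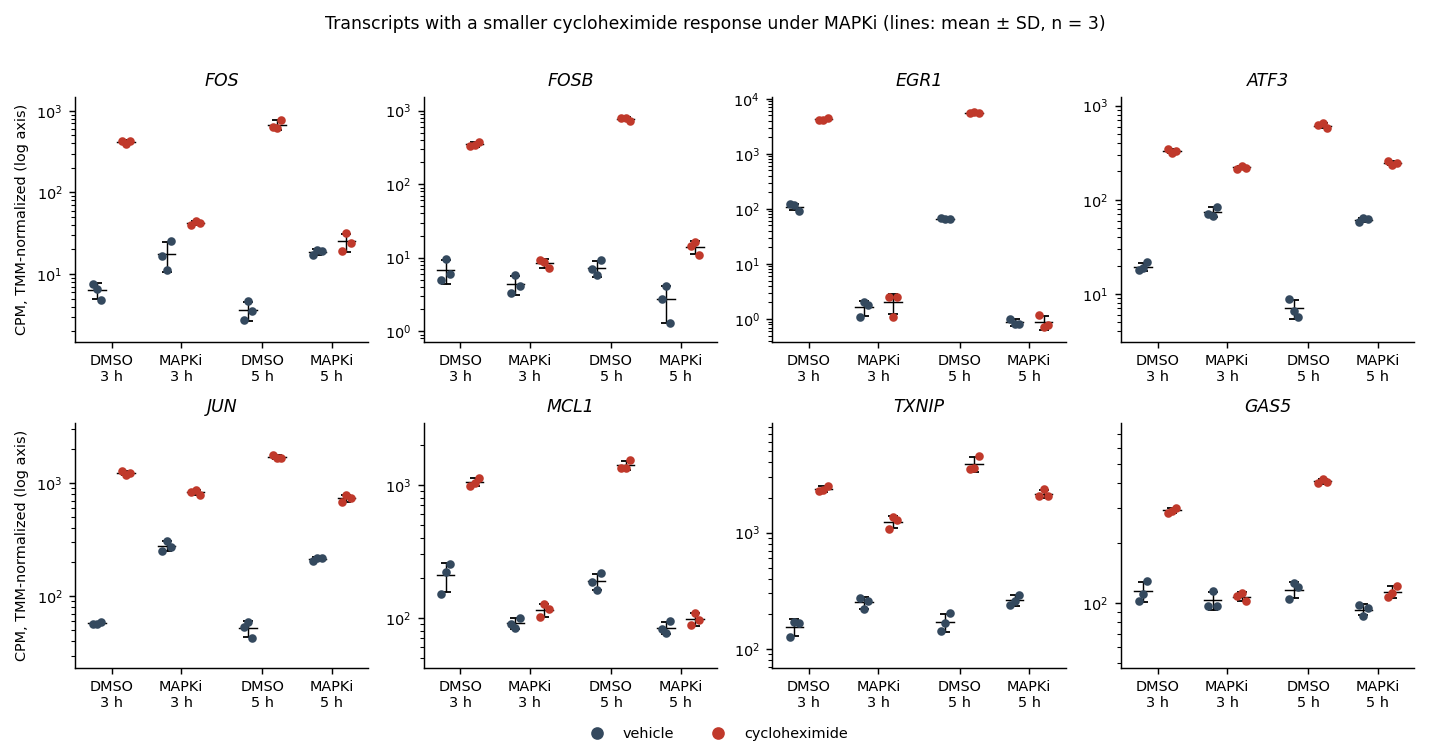
CPM on a log axis for 8 genes whose cycloheximide response was smaller under MAPKi, in DMSO-treated and MAPKi-treated cells at 3 h and 5 h. Points are libraries (dark blue vehicle, red cycloheximide), lines are the mean ± SD of 3. The red points of FOS, FOSB and EGR1 rise far above the blue ones after DMSO and stay near or on them after MAPKi, where EGR1 lies near 1 CPM.

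ERK target and feedback genes did not move one way. On their list, which shares EGR1, FOSL1 and IER3 with the immediate-early list, 30 were tested. Of these, 4 had a higher and 3 a lower interaction (23.3% called, 11.2% over all genes). The median was −0.03, which turned to 0.12 with total counts (4 and 3 called). The lower members were EGR1, IL11, a cytokine at 6 counts per library in its lowest group (−2.93), and FOSL1, an AP-1 subunit stabilised by ERK (−0.86). DUSP4, a nuclear ERK phosphatase named after its values were seen, stood at 191 ± 16.1 and 184 ± 16.3 CPM at 5 h after DMSO without and with cycloheximide, and at 13 ± 0.975 and 33.1 ± 3.86 CPM after MAPKi (interaction 0.80 ± 0.12, adjusted p 2.13e-07). HMGA2, a chromatin architectural protein, fell to 0.300 of its vehicle level at 5 h after DMSO and to 0.862 after MAPKi at that time (interaction 0.97 ± 0.11, adjusted p 4.14e-11). CCND1, cyclin D1, rose 1.81-fold at 5 h after MAPKi, from 13.7 ± 2.33 to 24.6 ± 1.23 CPM, while it was at 423, 474 and 435 CPM in vehicle and 401, 403 and 322 CPM in cycloheximide after DMSO (interaction 0.71 ± 0.14, adjusted p 8.52e-05).

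On the list of TXNIP and its relatives, 3 of 5 tested members were lower and none higher (60% called, 11.2% over all genes). TXNIP, which binds thioredoxin and limits glucose uptake, rose 22.7-fold at 5 h after DMSO and 8.12-fold after MAPKi, where its vehicle level was 264 ± 27.7 CPM against 171 ± 30.1 CPM. Its interaction of −1.56 ± 0.18 (adjusted p 1.59e-10) was negative in 3 of 3 replicate numbers. The other lower members were ARRDC4 (−2.05) and ARRDC3 (−1.56). ARRDC4 was not called when replicate 1 was left out (adjusted p 0.12).

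Of 26 tested snoRNA host genes, 13 had a lower and 0 a higher interaction (50% called, 11.2% over all genes). With total counts these were 10 and 0, and the median under TMM was −0.42. GAS5 (chromosome 1, 173863901 to 173869045), a host of box C/D snoRNAs that is destroyed when translated, held 104, 125 and 120 CPM in vehicle and 399, 420 and 404 CPM in cycloheximide at 5 h after DMSO. After MAPKi it held 97.3, 86.3 and 94.4 CPM in vehicle and 107, 112 and 122 CPM in cycloheximide. The vehicle libraries were slightly lower after MAPKi, and the 3.50-fold rise shrank to 1.23-fold (interaction −1.39 ± 0.10, adjusted p 2.38e-19). ZFAS1, another host gene, rose 6.88-fold after DMSO and 1.34-fold after MAPKi at 5 h (interaction −1.99 ± 0.29, adjusted p 2.25e-07), EPB41L4A-AS1 had an interaction of −1.63 ± 0.13 and SNHG12 of −1.10 ± 0.19. These genes overlap snoRNA genes, GAS5 and EPB41L4A-AS1 also other genes, and no strand setting of the count is given, so reads of overlapping genes cannot be told apart.

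Splicing factor genes, which make poison-exon isoforms that are cleared by nonsense-mediated decay, had 9 of 24 lower and 0 higher (median −0.30), against 7 and 0 with total counts. Under TMM 37.5% of this list were called, and 11.2% of all genes. CLK1, a kinase of SR proteins, rose 5.89-fold at 5 h after DMSO and 2.12-fold after MAPKi (interaction −1.34 ± 0.19, adjusted p 7.55e-08). RBM5 (−0.87), TRA2A (−0.80) and SRSF5 (−0.64) followed. Of 17 tested genes of the decay machinery itself, edgeR called 0 in either direction, with the smallest adjusted p at MAGOHB, a subunit of the exon junction complex (interaction 0.31, adjusted p 0.073), which was called higher under 8 of 11 other settings. With total counts 2 of the 17 were called higher. Isoforms are not resolved by 3′ end counts.

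On the p53 target list 9 of 23 had a lower and 1 a higher interaction (median −0.45, 43.5% called, 11.2% over all genes). There were 5 and 2 with total counts, and 4 were lower without replicate 1 or without replicate 3. Cycloheximide raised 10 and lowered 5 of the 23 after DMSO, and raised 5 and lowered 10 after MAPKi. CDKN1A (chromosome 6, 36676463 to 36687332), which encodes the cell cycle inhibitor p21, held 47.3, 52.4 and 41.9 CPM in vehicle and 85.1, 102 and 72.1 CPM in cycloheximide at 5 h after DMSO. After MAPKi it held 93.1, 112 and 104 CPM in vehicle and 35.3, 29.2 and 32.1 CPM in cycloheximide. The order of vehicle and cycloheximide was thus reversed between the pretreatments, without overlap (interaction −1.93 ± 0.15, adjusted p 3.32e-18). GDF15, a stress cytokine (−0.82 ± 0.17), and PLK3, a polo-like kinase (−0.99 ± 0.29), were also lower. Without replicate 1 PLK3 lost its call, and so it did without replicate 3 (adjusted p up to 0.27).

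Among 32 tested genes of cholesterol synthesis and SREBP control, 8 were lower and 0 higher (median −0.26, 25% called, 11.2% over all genes). Under total counts 5 were lower and 2 higher, and without replicate 1 and replicate 3 in turn 4 and 5 were lower. Cycloheximide raised 7 and lowered 6 of them after DMSO, and raised 1 and lowered 13 after MAPKi. INSIG1, which retains the SREBP complex in the endoplasmic reticulum, rose 1.79-fold at 5 h after DMSO and fell to 0.432 of vehicle after MAPKi (interaction −1.64 ± 0.23, adjusted p 1.05e-07). HMGCS1, an enzyme of the mevalonate pathway, had an interaction of −1.24 ± 0.16 and TM7SF2, a sterol reductase, of −1.78 ± 0.23.

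Stress lists differed among themselves. Called members made up 26.7% of the ATF4 list, 31.8% of the endoplasmic reticulum list and 13.3% of the heat shock list. Among all genes tested the share was 11.2%. DDIT3, the CHOP factor of the stress response, rose 9.55-fold at 5 h after DMSO and 3.65-fold after MAPKi (interaction −1.24 ± 0.14, adjusted p 2.52e-10), but its list of ATF4 genes held 7 lower and 1 higher of 30 with a median of −0.02, which was 0.13 with total counts (6 lower and 5 higher). On the list of endoplasmic reticulum stress and folding genes, 7 of 22 were lower and 0 higher (median −0.38), against 3 and 0 with total counts. They included XBP1, a factor of the unfolded protein response (−0.64), and ERN1, the sensor IRE1 (−1.59), both of which lost their calls when either replicate 1 or replicate 3 was left out, and then only 1 of the 22 was lower. In DMSO-treated cells 4 of these 22 rose and 3 fell with cycloheximide, and in MAPKi-treated cells 0 rose and 11 fell. Heat shock proteins and cochaperones had 4 lower and 0 higher of 30, against 2 lower and 7 higher under total counts and 2 lower without replicate 1. Without replicate 2 the ATF4 list had 4 lower members.

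Many abundant housekeeping mRNAs fell with cycloheximide after MAPKi under TMM scaling. Of 82 tested cytosolic ribosomal protein genes, 65 fell and 0 rose in MAPKi-treated cells, against 19 that fell and 2 that rose in DMSO-treated cells, and 30 had a lower and 0 a higher interaction (median −0.25). RPS27, a protein of the small ribosomal subunit, was at 805 ± 69.4 and 842 ± 48.1 CPM at 5 h after DMSO and at 875 ± 69.0 and 622 ± 57.0 CPM after MAPKi (interaction −0.46 ± 0.09, adjusted p 4.07e-05). RPL22L1 (−0.63 ± 0.13) and RPL3 (−0.53 ± 0.11), proteins of the large subunit, showed larger differences, RPL3 being named after its values were seen. Nuclear-encoded respiratory chain genes had 51 of 74 falling after MAPKi, 20 after DMSO, and 17 lower against 0 higher interactions (median −0.26). Over all genes tested, 13.9% fell after MAPKi and 13.5% after DMSO under TMM. Total counts changed the falls among all genes from 2082 to 1256 after MAPKi and from 2011 to 2600 after DMSO. Falls within these lists are not given for that scaling. With total counts 7 ribosomal protein genes and 4 respiratory chain genes were lower, with 0 and 1 higher, and the list medians relative to all genes were −0.20 and −0.22. Without replicate 1 the lower ribosomal protein genes numbered 7 and without replicate 2 14, and the lower respiratory chain genes 2 without replicate 1, 10 without replicate 2 and 7 without replicate 3. COX7B, a subunit of cytochrome c oxidase, had an interaction of −0.59 ± 0.14, lost without replicate 1 (adjusted p 0.19). Reads of ribosomal protein genes may be shared with processed pseudogenes. Proteasome subunit genes, another abundant class, had 0 called of 34 by edgeR and 1 higher with total counts, the smallest adjusted p being 0.075 at PSMC6 (interaction −0.23).

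Histone genes formed a further group, listed after values were seen. Of 42 tested, cycloheximide raised 23 in DMSO-treated and 17 in MAPKi-treated cells, and 10 had a lower and 0 a higher interaction (23.8% called, 11.2% over all genes). H2BC12, a histone H2B gene, went from 25.0 ± 1.79 to 157 ± 22.4 CPM at 5 h after DMSO and from 57.6 ± 5.99 to 56.2 ± 0.396 CPM after MAPKi (interaction −1.97 ± 0.13, adjusted p 5.17e-21). Histone genes are near-identical copies, and reads can be split between them. How fully 3′ end libraries capture their mRNAs was not tested, so these counts may not stand for all histone mRNA.

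**Figure D3:**
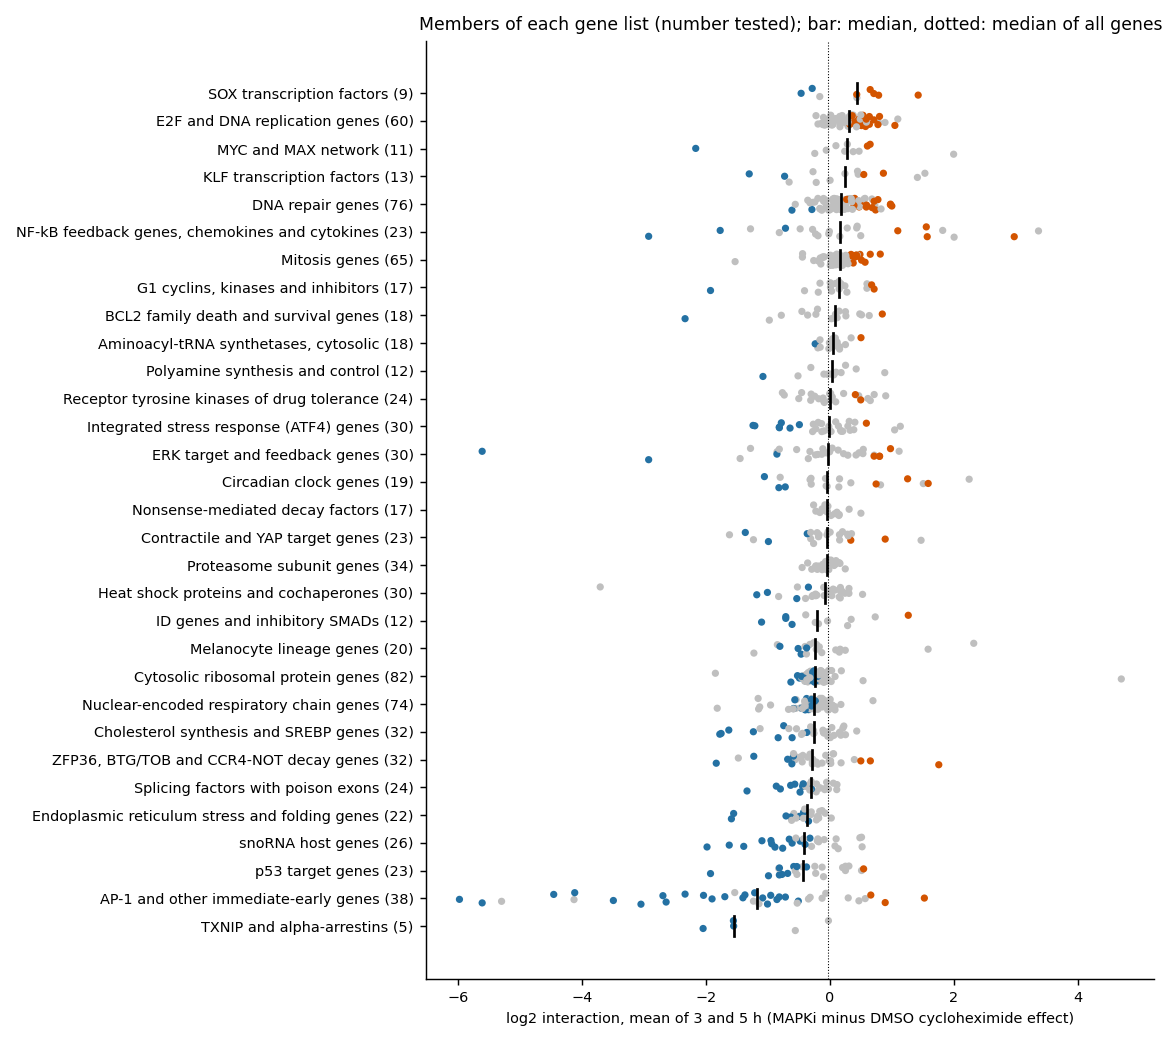
The log2 interaction averaged over 3 h and 5 h (x axis) for every tested member of each gene list (number in parentheses), with called members in blue (lower) or orange (higher), the list median as a bar and the median of all genes dotted. The TXNIP and immediate-early lists lie furthest to the left, with medians of −1.56 and −1.18, and the SOX and E2F lists to the right, with medians of 0.43 and 0.31.

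Genes with a higher interaction differed in where their cycloheximide level ended relative to DMSO-treated cells. PLD6 (chromosome 17, 17200995 to 17206333), a phospholipase of the mitochondrial surface, ended above them. At 5 h it was at 13.3, 17.2 and 15.3 CPM in vehicle and at 21.0, 30.1 and 17.5 CPM in cycloheximide after DMSO. After MAPKi it was at 7.30, 7.63 and 6.86 CPM in vehicle and at 85.6, 72.7 and 82.4 CPM in cycloheximide. All 3 MAPKi cycloheximide libraries lay above every other library, and the interaction was 2.53 ± 0.24 (adjusted p 2.14e-13). ZFP36L2, a protein that binds AU-rich elements and recruits deadenylases, was at 84.2 ± 14.7 and 79.6 ± 10.9 CPM at 5 h after DMSO and rose from 33.7 ± 9.03 to 145 ± 32.8 CPM after MAPKi (interaction 1.75 ± 0.25, adjusted p 8.80e-08).

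POU3F2 (chromosome 6, 98834574 to 98839458), the neural factor BRN2 of melanoma, stayed below them. At 5 h it held 133, 151 and 137 CPM in vehicle and 118, 119 and 118 CPM in cycloheximide after DMSO. After MAPKi it held 4.01, 5.62 and 6.66 CPM in vehicle and 33.4, 33.5 and 29.3 CPM in cycloheximide. The 5.8-fold rise brought no MAPKi library near the DMSO-treated cells (interaction 2.06 ± 0.22, adjusted p 4.93e-12). RND3, a small GTPase-like protein induced by ERK in melanoma, behaved alike, from 9.99 ± 0.419 to 46.0 ± 3.54 CPM after MAPKi against 274 ± 21.0 and 233 ± 18.2 CPM after DMSO (interaction 1.74 ± 0.14, adjusted p 8.03e-17). It was named after its values were seen. TET1, a 5-methylcytosine dioxygenase whose vehicle level differed by −0.02 (log2, MAPKi minus DMSO) at 0 h, fell to 0.268 of vehicle at 5 h after DMSO and was at 1.47 times vehicle after MAPKi (interaction 2.02 ± 0.27, adjusted p 1.92e-08). TMCC3, a membrane protein, was at 0.274 of vehicle after DMSO and at 2.41 times vehicle after MAPKi (interaction 2.03 ± 0.32, adjusted p 1.36e-06). RN7SK, the RNA that holds the elongation factor P-TEFb inactive, rose 3.18-fold after MAPKi at 5 h (interaction 2.31 ± 0.35). In vehicle at 0 h it was at 3.13 ± 0.962 CPM after DMSO and 6.76 ± 0.509 CPM after MAPKi. Under triptolide alone at 5 h it was at 34.7 ± 4.89 and 146 ± 8.45 CPM. Its counts are uncertain, since near-identical copies exist in the genome and its capture in 3′ end libraries of cytoplasmic RNA was not tested.

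Across the 693 higher genes, the MAPKi vehicle level at 3 h and 5 h was below that of DMSO in 498, and in 205 of those the level in cycloheximide was above that of DMSO. In the other 195 the MAPKi level was above that of DMSO in vehicle and in cycloheximide. The median gap (MAPKi minus DMSO, log2) was −0.52 in vehicle and 0.20 in cycloheximide. Of the 985 lower genes, 641 were above DMSO in vehicle and 379 of those were below it in cycloheximide, the median gap going from 0.23 to −0.39. These values follow in part from the definition of the interaction.

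In libraries that the contrast does not use, harvested at 0 h in vehicle, the 693 higher genes were lower after MAPKi in 50.5% (350 genes) and higher in 17.2%, against 24% and 21.9% of all genes tested (45.9% called, 3279 higher and 3586 lower, or 4049 and 2948 with total counts). Their median MAPKi effect was −0.42 against 0.03. The 985 lower genes were higher at 0 h in 37.6% (370 genes) and lower in 22.9%, with a median of 0.15. In triptolide libraries, the median ratio of the 3 h to the 0 h level of the higher genes was 86.7% after DMSO and 85.4% after MAPKi, against 101% and 103% over all genes and 96% and 98% for the lower genes. These ratios are relative, since TMM scaling holds the median of all genes near 100%, and give no amount of RNA left.

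**Figure D4:**
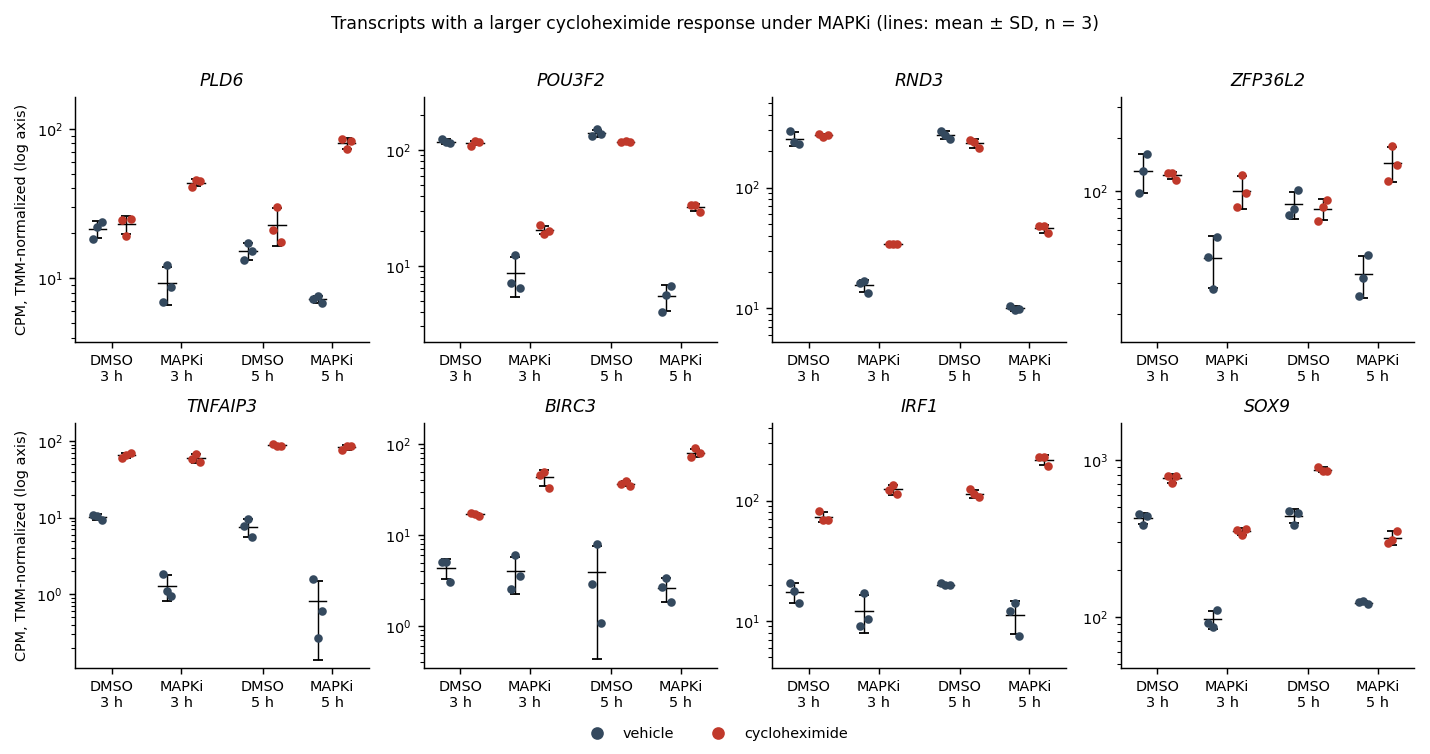
CPM on a log axis for 8 genes whose cycloheximide response was larger under MAPKi, with libraries as points (dark blue vehicle, red cycloheximide) and lines at the mean ± SD of 3. At 5 h PLD6, BIRC3 and IRF1 end above the DMSO-treated cells in cycloheximide, TNFAIP3 ends level with them, and POU3F2 and RND3 stay below them.

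NF-kB targets rose in both pretreatments, and a few rose more after MAPKi. On a list of NF-kB feedback genes, chemokines and cytokines, 20 of 23 tested rose after DMSO and 18 after MAPKi. The interaction was higher in 4 and lower in 3 (30.4% called, 11.2% over all genes), against 7 and 3 with total counts, and the median was 0.16. TNFAIP3 (chromosome 6, 137866349 to 137883312), the ubiquitin-editing enzyme A20 that shuts off NF-kB, was at 7.88, 9.54 and 5.51 CPM in vehicle and 90.5, 86.2 and 87.1 CPM in cycloheximide at 5 h after DMSO. After MAPKi it was at 1.57, 0.268 and 0.605 CPM in vehicle and 76.3, 86.2 and 86.1 CPM in cycloheximide. The cycloheximide groups overlapped, so the interaction of 2.97 ± 0.36 (adjusted p 9.93e-10) came with a lower vehicle level. That MAPKi vehicle group averaged under 10 counts per library at 5 h, so the size of the interaction rests on few counts. BIRC3, an inhibitor of apoptosis that is induced by NF-kB, reached 37.0 ± 2.41 CPM in cycloheximide after DMSO and 81.0 ± 8.70 CPM after MAPKi at 5 h, from 3.97 ± 3.53 and 2.63 ± 0.769 CPM (interaction 1.57 ± 0.39, adjusted p 0.00274). Leaving out replicate 1 or replicate 2 ended its call, with an adjusted p of up to 0.071. IRF1, a transcription factor of the interferon response named after its values were seen, rose 5.7-fold after DMSO and 19.7-fold after MAPKi (interaction 1.55 ± 0.23, adjusted p 2.07e-07). The lower members included IL11 and IL24 (−1.77 ± 0.20), cytokines of the IL-6 and IL-10 families.

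The 250 bases before the start are shown for these 3 genes because all of them hold an NF-kB site, in capitals, on one strand or the other. The windows are chr6:137867009-137867258 for TNFAIP3 (plus strand, sites at 67 and 55 bases before the start), chr11:102317234-102317483 for BIRC3 (plus strand, at 199 and 135) and chr5:132490774-132491023 for IRF1 (minus strand, at 50), from RefSeq on GRCh38.p14. The TNFAIP3 window precedes a start that lies inside the annotated gene.
TNFAIP3: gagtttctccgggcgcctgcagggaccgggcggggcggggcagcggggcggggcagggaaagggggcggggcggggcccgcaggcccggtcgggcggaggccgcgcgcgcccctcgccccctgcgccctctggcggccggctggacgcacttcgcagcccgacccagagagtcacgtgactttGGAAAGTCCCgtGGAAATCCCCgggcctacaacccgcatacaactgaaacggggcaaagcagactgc
BIRC3: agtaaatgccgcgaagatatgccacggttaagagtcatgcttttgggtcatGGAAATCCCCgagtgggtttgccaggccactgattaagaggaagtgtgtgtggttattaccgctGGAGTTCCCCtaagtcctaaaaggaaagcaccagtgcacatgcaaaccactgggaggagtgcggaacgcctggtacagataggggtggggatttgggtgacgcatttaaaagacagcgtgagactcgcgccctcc
IRF1: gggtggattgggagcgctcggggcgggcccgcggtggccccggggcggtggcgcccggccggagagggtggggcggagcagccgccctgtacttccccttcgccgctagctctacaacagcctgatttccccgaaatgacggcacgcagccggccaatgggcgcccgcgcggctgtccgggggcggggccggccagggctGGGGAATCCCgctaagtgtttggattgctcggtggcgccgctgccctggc
The fourth higher member, ICAM1, an adhesion receptor named after its values were seen (1.09), held no such site in its window. The share among the other members of this list was not computed, so a link of the site to the higher interaction was not tested. The site was present before 9.07% of the 11024 starts, 9.89% of those of higher genes and 7.30% of those of lower genes. It was not confined to NF-kB targets. Of 18 E2F and DNA replication genes with a higher interaction and an entry, 4 held it, among them MCM10, and so did 1 of the 17 lower immediate-early genes. An ETS motif (CCGGAAG on either strand) lay before 23.9% of the lower genes, 9.32% of the higher genes and 15.2% of all. Among the 17 lower immediate-early genes with an entry, 1 held it. An AP-1 motif (TGANTCA) lay before 0 of these 17, 5.28% of the lower genes, 3.23% of the higher genes and 4.17% of all. A link of either motif to the interaction was not tested.

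Several DNA replication, repair and mitosis genes had a higher interaction. Over all genes tested 4.64% were higher under TMM, and 1558 of 14948 with total counts. Of 60 tested E2F and DNA replication genes, 19 had a higher and 0 a lower interaction (median 0.31), against 29 and 0 with total counts, 11 without replicate 1 and 8 without replicate 3, and cycloheximide raised 25 of them after MAPKi against 4 after DMSO. MCM10, a replication initiation factor, was at 79.2 ± 7.17 and 71.4 ± 3.01 CPM at 5 h after DMSO and went from 11.7 ± 1.87 to 21.2 ± 3.53 CPM after MAPKi (interaction 1.05 ± 0.16, adjusted p 1.06e-06). The licensing factor CDT1 (0.80 ± 0.14) and DTL, part of the ligase that degrades it (0.77 ± 0.15), behaved alike. The median MAPKi effect at 0 h on this list was −1.0, and all 3 genes stayed below DMSO-treated cells in cycloheximide.

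Of 76 DNA repair genes, 14 were higher and 2 lower (median 0.17, 21.1% called, 11.2% over all genes). With total counts 25 were higher and 1 lower, beside 1558 higher and 490 lower of all 14948 genes. There were 8 to 12 higher when a replicate number was left out (8 without replicate 1, 9 without replicate 3). UNG, which excises uracil from DNA, was at 112 ± 21.9 and 82.2 ± 13.2 CPM at 5 h after DMSO and at 20.9 ± 3.49 and 34.2 ± 4.38 CPM after MAPKi (interaction 0.97 ± 0.16, adjusted p 2.16e-06). XRCC2, a protein of homologous recombination, fell to 0.654 of vehicle after DMSO and rose 1.78-fold after MAPKi at 5 h (interaction 0.97 ± 0.15, adjusted p 4.66e-07). BRCA2, a mediator of homologous recombination, had an interaction of 0.77 ± 0.14 and FANCF, of the Fanconi anaemia core complex, of 1.00 ± 0.31, which was not called without any 1 of the 3 replicate numbers (adjusted p up to 0.21). Of 65 mitosis genes 14 were higher and 0 lower (median 0.16, 21.5% called), against 35 and 0 with total counts. At 5 h by its own test 11 were higher and 5 lower. Higher members included CDC20, the activator of the anaphase-promoting complex (0.56 ± 0.10), and CDC25A, a phosphatase that activates cyclin-dependent kinases (0.81 ± 0.17). Without replicate 1 there were 7 higher mitosis genes, and without replicate 3 there were 8. The E2F, repair and mitosis lists had medians above that of all genes under TMM and with total counts.

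Lineage genes were divided. Of 9 tested SOX factors, 5 were higher and 2 lower (median 0.43, 77.8% called, 11.2% over all genes). There were 5 and 0 with total counts, 4 and 0 without replicate 1, and 3 and 1 without replicate 2 or replicate 3. SOX9, a factor that opposes the melanocytic state, rose 1.97-fold at 5 h after DMSO and 2.59-fold after MAPKi, and at 3 h 1.79-fold and 3.63-fold (interaction 0.71 ± 0.11, adjusted p 1.07e-06). SOX8 had an interaction of 1.42 ± 0.33. The melanocyte regulators SOX10 (−0.47 ± 0.12) and MITF (−0.52 ± 0.11) were lower, but SOX10 was not called with total counts, and neither of them was called without replicate 1 (adjusted p up to 0.12). Of 20 tested melanocyte lineage genes 4 were lower and 0 higher (20% called), against 2 lower and 1 higher with total counts and 1 lower without replicate 1.

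The remaining lists had few calls or calls in both directions. The ZNF, receptor kinase, synthetase, polyamine and BCL2 lists had 8.33% to 11.1% called, no more than the 11.2% of all genes. The clock, contractile, G1, KLF, MYC, ID and deadenylation lists had more, from 17.6% (G1) to 41.7% (ID genes and inhibitory SMADs). Zinc finger ZNF mRNAs had 15 higher and 26 lower of 405 (10.1% called, 25 and 17 with total counts). Receptor tyrosine kinases had 2 higher and 0 lower of 24, aminoacyl-tRNA synthetases 1 and 1 of 18, and polyamine genes 0 and 1 of 12. The lower synthetase, QARS1, kept its call under only 1 of 11 other settings. Clock genes had 3 and 3 of 19, contractile and YAP target genes 2 and 3 of 23, G1 regulators 2 and 1 of 17, KLF factors 2 and 2 of 13, BCL2 family genes 1 and 1 of 18, and the MYC network 2 and 1 of 11. ID genes and inhibitory SMADs had 1 and 4 of 12, and genes of mRNA deadenylation 3 and 6 of 32, the latter led by PNRC1, a decapping coactivator whose call ended without replicate 1 and also without replicate 3 (−1.84 ± 0.43), and ZFP36L2. With total counts the synthetases, G1 and KLF lists had 6, 6 and 4 higher and 0, 1 and 1 lower. FOXD3, a neural crest factor (−2.97 ± 0.39), and FAM71F1 (−2.39 ± 0.43) were among the 8 genes with the most negative interaction and 10 counts in every group, and had vehicle levels at 0 h that were higher after MAPKi. SLC19A2, a thiamine transporter, was called in opposite directions, going from 0.450, 0.545 and 1.21 to 1.30, 1.56 and 2.9 CPM at 5 h after DMSO and from 4.01, 4.82 and 4.03 to 1.28, 2.47 and 2.08 CPM after MAPKi (interaction −2.25 ± 0.53, adjusted p 0.00149). Many of the genes named overlap other annotated genes, among them CDKN1A, INSIG1, DDIT3, HMGA2, RBM5, TNFAIP3, SOX10 and FOXD3, and their reads cannot be told apart from those of the partner.

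At 0 h, 0 genes were called by edgeR or by DESeq2, with 210 genes higher and 205 lower at an unadjusted p below 0.05. At 1 h, 3 genes were called (0.0201%), all lower: EGR1 (−2.80 ± 0.47), JUN (−1.26 ± 0.20) and IER2 (−1.04 ± 0.20). None of the 3 was called without replicate 2, and 1 gene was without replicate 1. Between 3 h and 5 h the interaction differed for 26 genes (0.174%), 13 in each direction, and for 0 to 6 genes when a replicate number was left out. CAB39L (−2.80, adjusted p 0.017), a scaffold of the LKB1 kinase, and FRMD4A (1.42, adjusted p 0.00073), CHST1 (1.74, adjusted p 0.046) and C8orf58 (1.72, adjusted p 0.040) led the change among genes with 10 counts in every group. FOS, ATF3, CDKN1A and H2BC12 went further down (H2BC12 by 1.45, adjusted p 0.0013), and RND3 (1.38, adjusted p 0.0068), DUSP4 (1.19, adjusted p 0.0047) and HMGA2 (1.09, adjusted p 0.0047) went further up.

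The same contrast under triptolide, which blocks initiation by RNA polymerase II, uses libraries that share no sample with it. There 553 genes were called (3.7%), 421 higher (2.82%) and 132 lower (0.883%), or 697 and 79 with total counts. The interaction without triptolide differed from that under triptolide for 914 genes (6.11%, 276 higher and 638 lower, or 428 and 494 with total counts), which included 40.2% of the 985 lower and 29.9% of the 693 higher genes. The sign was shared by 54.8% of the lower and 62.3% of the higher genes, against 53% of all genes tested. Of the lower genes 37 were called lower and 61 called higher under triptolide, and of the higher genes 52 were called higher and 6 lower.

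FOS, ATF3 and JUN had values above 0 under triptolide, while FOSL1 was lower (−1.12 ± 0.23, adjusted p 0.0010) and FOSB was at 0.10 ± 0.52. FOS had an interaction of 1.42 ± 0.76 under triptolide (adjusted p 0.37), ATF3 of 1.48 ± 0.36 (adjusted p 0.0068) and JUN of 1.37 ± 0.38 (adjusted p 0.021), and each differed from its value without triptolide (JUN by −4.42, adjusted p 9.0e-11). Levels under triptolide alone at 5 h were low, so these values rest on few counts. After DMSO and MAPKi, FOS was at 0.368 ± 0.265 and 0.171 ± 0.295 CPM and JUN at 0.521 ± 0.542 and 2.55 ± 0.170 CPM. ATF3 was at 1.35 ± 0.427 and 3.73 ± 1.94 CPM. JUN stood at 10.4 ± 2.46 CPM after DMSO and 124 ± 9.28 CPM after MAPKi at 5 h with both drugs. MCL1 (0.33 ± 0.23) and H2BC12 (−0.30 ± 0.13) were not called under triptolide and differed from their values without it. GAS5 (−0.48 ± 0.10, adjusted p 0.0011) and EPB41L4A-AS1 (−0.74 ± 0.14, adjusted p 0.00013) were lower in both settings, though less so under triptolide. On the gained side, DUSP4 (1.28 ± 0.15, adjusted p 3.7e-09) and SOX9 (1.44 ± 0.12, adjusted p 5.2e-15) were higher in both, POU3F2 (0.12 ± 0.32) was not called, and RND3 was at −0.92 ± 0.25 (adjusted p 0.018).

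**Figure D5:**
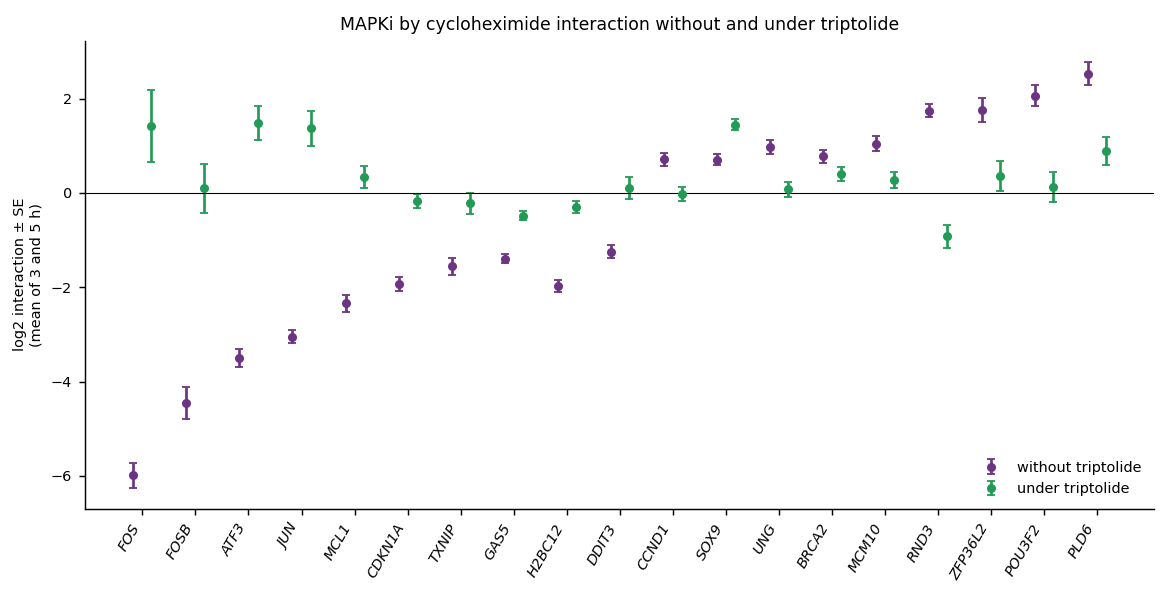
The log2 interaction ± standard error, averaged over 3 h and 5 h, without triptolide (purple) and under triptolide (green), for 19 genes chosen after their values were seen. FOS, ATF3 and JUN lie between −5.98 and −3.05 without triptolide and between 1.37 and 1.48 under it, where their levels under triptolide alone were low. SOX9 is above 0 in both.

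Genes with a nearly empty group were kept apart, 59 of the 1678 having a group at or under 3 counts per library. The largest of these upward were PCDHGB6, LOC100422781 and KCNIP4-IT1, each at 0 CPM in all 3 DMSO cycloheximide libraries at 5 h and at 0.475 ± 0.295, 1.53 ± 0.337 and 1.71 ± 1.04 CPM in MAPKi cycloheximide libraries. Downward, LINC01647 was at 0 CPM in the DMSO vehicle libraries, at 3.4 ± 1.08 CPM in DMSO cycloheximide libraries at 5 h and at 0.255 ± 0.207 CPM in the MAPKi ones. LOC105375668 was at 1.45 ± 0.532 CPM in DMSO cycloheximide libraries at 5 h and at 0 CPM in all 3 MAPKi ones. PCDHGB6 and KCNIP4-IT1 overlap other genes, and each of these genes lost its call without at least 1 of the replicate numbers.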

How the data were processed

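The data were 3′ end mRNA libraries (QuantSeq) of cytoplasmic RNA from A375 cells, 96 in all, of which 24 enter the main contrast. The authors deposited raw read counts per gene. Per the study's methods and the submitters' processing notes, reads were trimmed with fastp 0.20.1, aligned to GRCh38.p13 with HISAT2 2.2.1 and counted on exons with HTSeq 0.13.5. The strand setting of the count is not given in the sources used here.

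Genes passing edgeR's filterByExpr in the whole table (14948 of 44659 entries) were scaled by TMM and fitted with edgeR 4.0.16 (R 4.3.3, limma 3.58.1; glmQLFit and glmQLFTest) with 1 mean per group over all 96 libraries and no covariate. Contrasts were tested on that fit, and p-values were adjusted by Benjamini-Hochberg over all genes tested, with a threshold of 0.05. Gene coordinates came from RefSeq, where 14118 tested names matched a symbol and 236 a synonym, and 594 did not match. Libraries of the main contrast held 3719323 to 11571408 counts, which limits the precision of low genes. No fold was given where every library of a group of that contrast held 3 counts or fewer. The rule was not applied to the triptolide groups.

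Named genes were the 8 largest called interactions in each direction with at least 10 counts per library in all 8 groups, the 3 largest in each direction with a group below that, up to 4 called members of each list (or the member of smallest p), the 3 largest in each direction for 5 h minus 3 h, 4 genes with opposite cycloheximide effects, and genes said to be named after their values were seen. A gene that this rule names is not reported here. Sample columns not used numbered 0. The members and lists were chosen with earlier results of these data known. The scripts were tested on simulated counts with known fold changes. Same-numbered libraries of different groups had deviations correlated above 0.1 in 55 of 84 pairs, and differently numbered ones in 39 of 168. The main fit nevertheless held no term for the replicate number, and a fit with a replicate block is given among the alternatives. The alternatives, 11 in number, were other scalings (DESeq2 size factors, total counts), DESeq2 1.42.0, no filter on low counts, fits of fewer libraries, a replicate block, leaving out each replicate number in turn without a block, and leaving out 1 library, the last added after the data were seen.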

Additional observations from a re-analysis of the deposited data

Results flagged for a closer look

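The tests of a difference in the cycloheximide response between pretreatments, with the p-values of edgeR's quasi-likelihood test adjusted by Benjamini-Hochberg, called 170 genes at 3 h, 1389 at 5 h, 1678 for both times averaged and 3 at 1 h. The interaction differed between 5 h and 3 h for 26 genes. It was called for 553 genes under triptolide, and the values without and under triptolide differed for 914. The genes below are given by their log2 interaction averaged over 3 h and 5 h (MAPKi minus DMSO), each of them called by that test. Groups of 3 libraries are too small for a test of outlying samples.

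Of immediate-early and ERK-responsive genes, FOS (−5.98), EGR1 (−5.62), FOSB (−4.46), ATF3 (−3.50), JUN (−3.05), NR4A3 (−2.70), MCL1 (−2.34), IER2 (−2.04), FOSL1 (−0.86) and IL11 (−2.93) had a lower interaction, and TRIB1 (1.52), CCN2 (0.89), GADD45A (0.66), HMGA2 (0.97), DUSP4 (0.80) and CCND1 (0.71) a higher interaction, HMGA2 through a smaller fall. Of the TXNIP family, TXNIP (−1.56), ARRDC3 (−1.56) and ARRDC4 (−2.05) were lower. Of snoRNA hosts and splicing regulators, ZFAS1 (−1.99), EPB41L4A-AS1 (−1.63), GAS5 (−1.39), SNHG12 (−1.10), CLK1 (−1.34), RBM5 (−0.87), TRA2A (−0.80) and SRSF5 (−0.64) were lower.

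Of p53, sterol and stress genes, CDKN1A (−1.93), PLK3 (−0.99), GDF15 (−0.82), TM7SF2 (−1.78), INSIG1 (−1.64), HMGCS1 (−1.24), DDIT3 (−1.24), ERN1 (−1.59) and XBP1 (−0.64) were lower. Of ribosomal, respiratory and histone genes, RPL22L1 (−0.63), RPL3 (−0.53), RPS27 (−0.46), COX7B (−0.59) and H2BC12 (−1.97) were lower. Of lineage factors, FOXD3 (−2.97), MITF (−0.52) and SOX10 (−0.47) were lower and SOX8 (1.42), SOX9 (0.71) and POU3F2 (2.06) higher.

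Of NF-kB targets, TNFAIP3 (2.97), BIRC3 (1.57), IRF1 (1.55) and ICAM1 (1.09) were higher, and the cytokine IL24 (−1.77) lower. Of replication, repair and mitosis genes, MCM10 (1.05), CDT1 (0.80), DTL (0.77), FANCF (1.00), UNG (0.97), XRCC2 (0.97), BRCA2 (0.77), CDC25A (0.81) and CDC20 (0.56) were higher. Among other genes, PLD6 (2.53), RN7SK (2.31), TMCC3 (2.03), TET1 (2.02), ZFP36L2 (1.75), CHST1 (1.00), C8orf58 (0.63), FRMD4A (0.45) and RND3 (1.74) were higher, and FAM71F1 (−2.39), PNRC1 (−1.84) and SLC19A2 (−2.25) lower. The calls of C8orf58 and FRMD4A were lost without replicate 1 and without replicate 3 (adjusted p up to 0.24 and 0.10), and that of C8orf58 also with no filter on low counts.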

How the results depend on the processing

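The call counts were recomputed under 11 alternatives, of which 1, the fit without replicate 2 of the MAPKi vehicle group at 3 h, was added after the data were seen. Of 134 called among 138 named genes, 81 kept their call under every alternative and 53 lost it under at least 1, and no value turned its sign while called. With a replicate block the averaged interaction gave 1865 genes (756 higher and 1109 lower), 205 at 3 h, 1567 at 5 h and 36 for 5 h minus 3 h. Deviations of same-numbered libraries had a median correlation of 0.136 over 84 pairs (−0.560 to 0.753). For libraries of different numbers it was −0.0813 over 168 pairs (−0.744 to 0.660). The main fit held no term for the number, so what same-numbered libraries share stays in its spread.

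Leaving out each replicate number in turn gave 59 to 76 genes at 3 h, 522 to 740 at 5 h, 767 to 1153 for the average, 0 to 6 for 5 h minus 3 h, 0 to 3 at 1 h, 153 to 265 under triptolide and 339 to 569 for without minus under triptolide. It gave 146 to 224 list members called (281 with all) and 89 to 110 named genes. For triptolide at 3 h it gave 1683 to 1943 genes after DMSO and 2516 to 3898 after MAPKi, against 2702 and 4210. These fits hold fewer samples. Without only replicate 2 of the MAPKi vehicle group at 3 h the counts were 165 genes at 3 h, 1356 at 5 h, 1795 for the average, 20 for 5 h minus 3 h, 564 under triptolide, 921 for without minus under triptolide, 294 list members, 130 named genes, and 2765 and 4180 for triptolide at 3 h.

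The 5 h minus 3 h count of 26 became 43 with total counts, 51 with DESeq2, 43 with no filter on low counts and 42 with the 48 libraries without triptolide. With no filter, 6 genes were called at 0 h and 232 at 1 h, against 0 and 3; the cause was not tested. Apart from these and the fits without a replicate number, the totals of called genes stayed within 1.5 times, but their division by direction did not: with total counts the averaged interaction had 1558 higher and 490 lower genes against 693 and 985, and single lists moved further. Depth limits genes near 1 CPM, such as EGR1 after MAPKi, to a few counts per library.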
